A study of Phyllostachys edulis with 34 samples.

Results

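PheCAD3 (PH02Gene38470) and PheCAD5 (PH02Gene38471) are a pair of moso bamboo (*Phyllostachys edulis*) cinnamyl alcohol dehydrogenase genes with consecutive gene ids, and both were followed here through every group of a stress and hormone experiment. They are 2 of the 59091 genes in the deposited tables and 2 of the 14 genes named PheCAD. RNA was sequenced from young leaves of seedlings grown in nutrient solution, in 34 libraries of 11 groups. The treated groups received 25% polyethylene glycol (PEG, an osmotic agent that mimics drought), 200 mM NaCl, 1 mM salicylic acid (SA) or 1 µM abscisic acid (ABA) in the solution, each for 3 h and for 24 h, with 3 libraries per group. The reference groups were CK at 3 h and at 24 h, with 3 libraries each, and 0 h, with 4 libraries. CK was read as the untreated control of its time, which the labels do not spell out.

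Cinnamyl alcohol dehydrogenase (CAD) reduces cinnamaldehydes to the alcohols that are polymerised into lignin, and is the last enzyme of monolignol synthesis. Lignin stiffens and waterproofs secondary cell walls, and plants also deposit it when stressed or attacked. Plant genomes hold several CAD genes, of which some serve lignifying tissue and others respond mainly to stress. SA is the hormone best known from defence against pathogens, and ABA the one best known from drought and salt responses.

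Each library held 28153302 to 51695158 counts. The libraries labelled 0 h did not form one group. Over 39392 genes, 0 h replicate 1 had rank correlations of 0.972 to 0.973 with the 3 libraries labelled ABA 24 h, and of 0.881 to 0.883 with 0 h replicates 2 to 4, which had 0.983 to 0.984 among themselves. Either 0 h replicate 1 or the other 0 h libraries thus go against their label. Whether the labels 0 h and ABA 24 h were exchanged was not tested. The labels were kept as given, and the direction of every result below that rests on the libraries labelled ABA 24 h or 0 h depends on them. The tests against CK were fitted to the 30 libraries that exclude 0 h. In whole leaves, fewer cells that express a gene and less of its RNA per cell cannot be told apart.

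PheCAD3 was raised by all 4 agents at 3 h, by PEG, NaCl and SA at 24 h, and most of all by SA. Levels are given first in FPKM, read fragments scaled to transcript length and library depth, which the authors computed. At 3 h the 3 SA libraries had 1039, 1084 and 1099 FPKM and the NaCl libraries 534, 397 and 483 FPKM. The PEG libraries had 259, 214 and 253 FPKM and the ABA libraries 162, 137 and 144 FPKM, against 31.2, 31.6 and 31.9 FPKM in CK 3 h. Every treated library was above every CK 3 h library, by 4.30 times even for the lowest ABA library over the highest CK library.

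At 24 h the treatments lay further apart. PheCAD3 reached 2205, 2269 and 2489 FPKM in SA and 611, 561 and 612 FPKM in NaCl. It was at 62.7, 60.1 and 63.3 FPKM in PEG and at 2.05, 3.09 and 1.37 FPKM in the libraries labelled ABA 24 h, against 15.8, 11.9 and 10.8 FPKM in CK 24 h. SA, NaCl and PEG thus lay above CK without overlap and the libraries labelled ABA 24 h below it without overlap.

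PheCAD5 followed at a far lower level. How reads that match both genes were counted is not known, and what part of its counts could be PheCAD3 reads was not tested. At 3 h it had 28.2, 25.96 and 23.6 FPKM in SA, 13.5, 8.94 and 8.498 FPKM in NaCl, 9.01, 8.59 and 3.33 FPKM in PEG and 3.13, 9.27 and 9.91 FPKM in ABA, against 0.431, 0.209 and 0.270 FPKM in CK 3 h. These CK values rest on 16, 12 and 10 counts. At 24 h it had 55.2, 55.9 and 67.9 FPKM in SA, 26.2, 20.9 and 20.7 FPKM in NaCl and 1.58, 1.22 and 0.327 FPKM in PEG, against 0.388, 0.0564 and 0 FPKM in CK 24 h, which are 15, 3 and 0 counts. The lowest PEG 24 h library, with 12 counts, lay below the highest CK 24 h library, and the SA and NaCl libraries lay above it by at least 142 times and 53.3 times. In the libraries labelled ABA 24 h PheCAD5 had no count at all, where a count of 0 allows up to 3 counts, or 0.101 to 0.103 CPM, TMM-normalized counts scaled to library size.

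**Figure D1:**
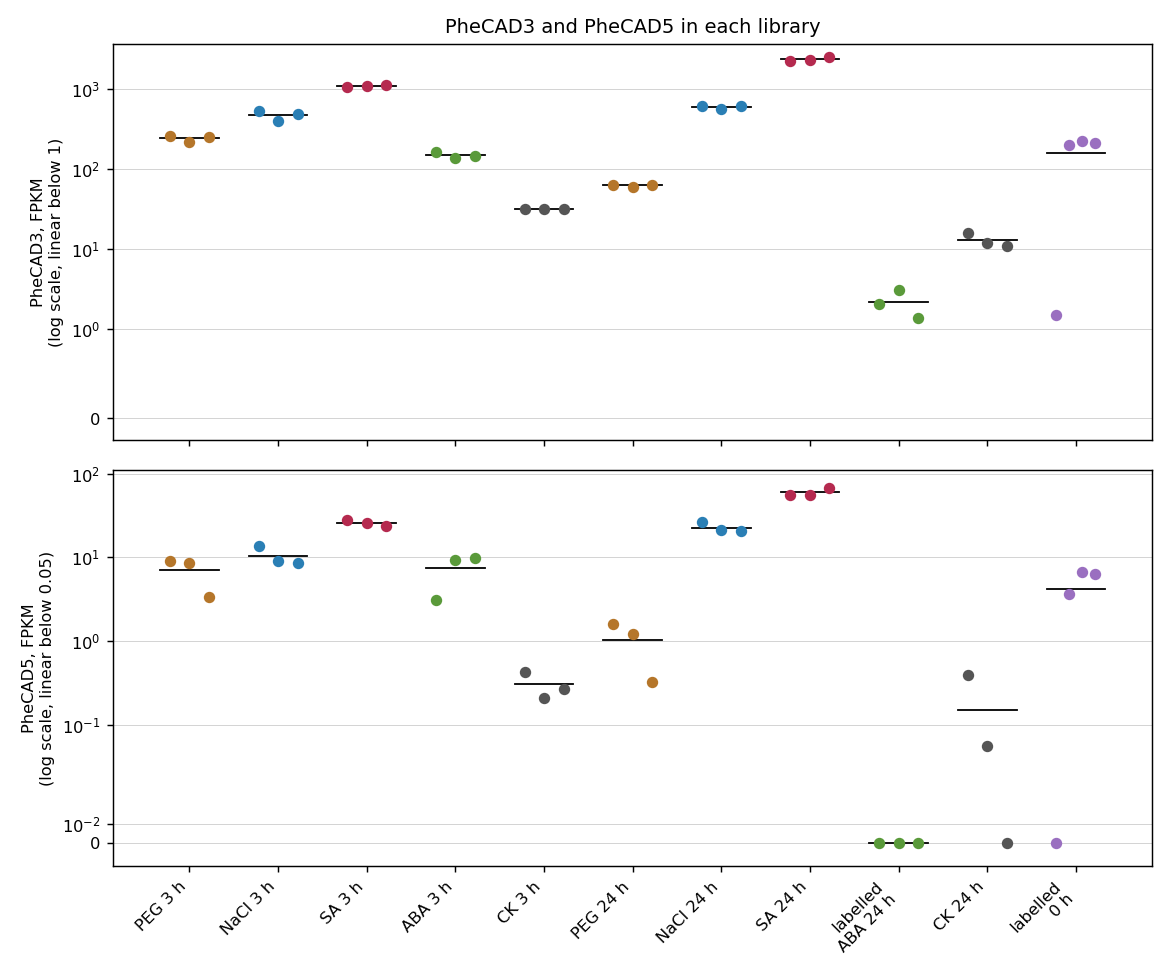
FPKM of PheCAD3 (top) and PheCAD5 (bottom) in each of the 34 libraries, on log axes that are linear below 1 and 0.05 FPKM. Points are libraries and lines are group means. SA 24 h stands highest in both panels, and 0 h replicate 1 sits at 1.5 FPKM of PheCAD3 with the libraries labelled ABA 24 h, apart from the other 0 h libraries at 200 to 225 FPKM.

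The changes were tested on the deposited counts with edgeR's quasi-likelihood test, and a gene was called at an adjusted p under 0.05 with a change of at least 2-fold. Fitted changes are relative to CK of the same time, after TMM normalization, with approximate standard errors. PheCAD3 rose on the log2 scale by 5.45 ± 0.18 in SA 3 h (adjusted p = 1.12e-19), by 3.93 ± 0.17 in NaCl 3 h (9.51e-17), by 3.33 ± 0.16 in PEG 3 h (9.8e-16) and by 2.35 ± 0.15 in ABA 3 h (2e-12). At 24 h it rose by 7.44 ± 0.20 in SA (4.89e-21), by 5.63 ± 0.18 in NaCl (1.36e-19) and by 2.45 ± 0.16 in PEG (7.18e-13). In the libraries labelled ABA 24 h it fell by 2.26 ± 0.17 (2.41e-11).

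The background to these calls is wide. Of the 39089 genes tested, SA 3 h raised 14.5%, NaCl 3 h 10.9%, PEG 3 h 13.3% and ABA 3 h 10.4%. At 24 h, 9.03% were called higher in SA, 14.2% in NaCl and 6.72% in PEG, and 13.7% were called lower in the libraries labelled ABA 24 h. PheCAD3 had the 108th largest fitted rise in SA 24 h and the 604th largest in SA 3 h. By p-value it stood 24th of all genes in SA 24 h.

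PheCAD5 was called higher in the same 7 comparisons. Its fitted log2 rises were 6.75 ± 0.55 in SA 3 h (adjusted p = 9.12e-11), 5.09 ± 0.54 in NaCl 3 h (1.95e-08), 4.88 ± 0.54 in PEG 3 h (3.9e-08) and, under ABA 3 h, 4.71 ± 0.54 (1.16e-07). At 24 h they were 8.42 ± 0.60 in SA (1.42e-11), 7.17 ± 0.60 in NaCl (1.74e-10) and 2.85 ± 0.72 in PEG (0.00259). The rise in SA 24 h was the 62nd largest of all genes, ahead of PheCAD3, with larger errors in every comparison. Without CK 24 h replicate 1, the library with 15 counts, the fitted rises became 10.34 in SA 24 h, 9.09 in NaCl 24 h and 4.79 in PEG 24 h. The rise in PEG 24 h fell under 2-fold (log2 0.79) when tested with limma on log2(FPKM + 1), a scale that understates changes of low genes.

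The fall of PheCAD5 in the libraries labelled ABA 24 h did not pass the test (adjusted p = 0.0725), though DESeq2 (0.00149) and the fit without CK 24 h replicate 3 (0.0352) passed it. At 3 counts for each library of labelled ABA 24 h, the level there was at least 1.61-fold lower than in CK 24 h and at least 77.3-fold lower than in ABA 3 h. The bound against CK 24 h rests on its replicate 1, with 15 counts, since the other 2 libraries had 3 and 0 counts, which is at or under the floor.

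**Figure D2:**
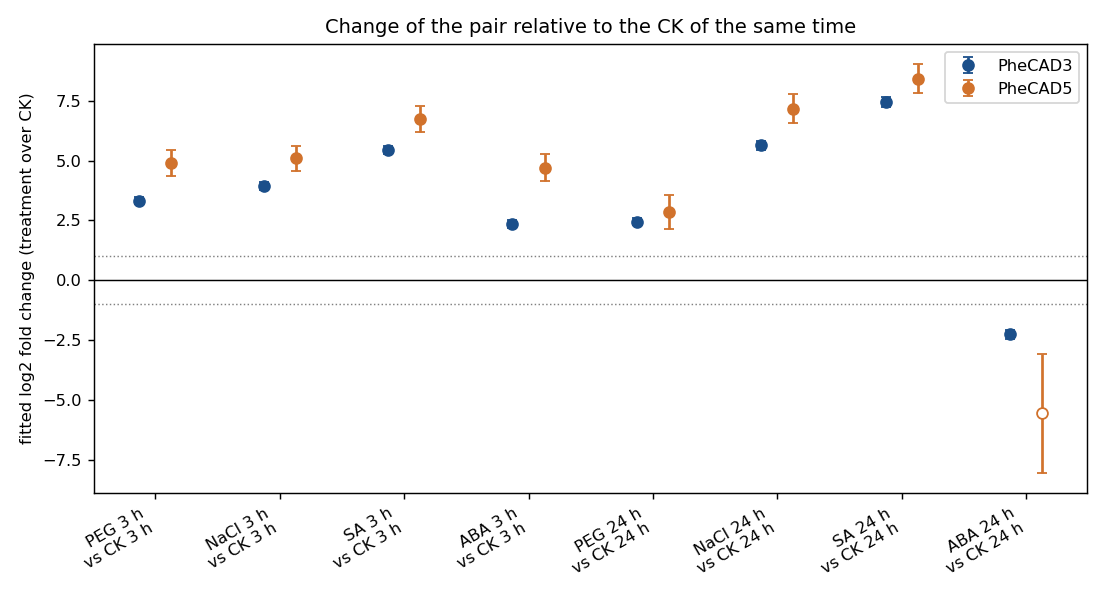
Fitted log2 fold change of PheCAD3 and PheCAD5 in each treatment over CK of the same time, with approximate standard errors (3 libraries per group). Dotted lines mark 2-fold. The open point is PheCAD5 in the libraries labelled ABA 24 h, where it had no count and the fitted value is no bound. Both genes lie above the upper dotted line in the other 7 comparisons.

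Relative to CK of the same time, the rise of PheCAD3 was larger at 24 h than at 3 h for SA and NaCl in the fit of 30 libraries. The larger part of that difference lies in CK, which was itself lower at 24 h by 1.24 on the log2 scale. From 3 h to 24 h the treated groups themselves rose by a fitted 0.75 for SA and 0.46 for NaCl. The 24 h change of PheCAD3 minus its 3 h change, in log2 units, was 1.99 ± 0.21 for SA (adjusted p = 1.81e-08) and 1.71 ± 0.21 for NaCl (2.61e-07). For PEG it was −0.88 ± 0.21 (0.00142), which is under 2-fold, and for ABA −4.62 ± 0.23 (6.91e-15) with the libraries labelled ABA 24 h. The sign for ABA depends on those labels, since 0 h replicates 2 to 4 averaged 211 FPKM, against 148 FPKM in ABA 3 h. Such differences were called upward in 8.9% of genes for SA and 9.95% for NaCl, and downward in 12.9% for PEG and 14.7% for ABA. When the 0 h libraries were added to the fit, the differences for SA and NaCl kept their size but no longer passed (adjusted p = 0.104 and 0.161), and the one for PEG had an adjusted p of 0.504.

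CK itself differed between the times. PheCAD3 was lower in CK 24 h than in CK 3 h by 1.24 ± 0.15 on the log2 scale (adjusted p = 3.66e-07, 0.239 with the 0 h libraries in the fit), a change called downward in 2.67% of genes. Between the treated groups alone, PheCAD3 in SA 24 h over SA 3 h was 2.16 times by mean FPKM and 1.68 times by the fit. NaCl 24 h over NaCl 3 h was 1.26 times by mean FPKM and 1.38 times by the fit. Neither step reached 2-fold in the fit. For PheCAD5 the differences in change were 1.67 ± 0.95 for SA (0.188), 2.08 ± 0.95 for NaCl (0.091) and −2.04 ± 1.08 for PEG (0.145), and none passed. Without CK 24 h replicate 1 those for SA (3.64, 0.0315) and NaCl (4.01, 0.0155) passed, while the one for PEG was −0.10. For PheCAD5 and ABA a fitted −10.27 passed (0.000312), but it rests on libraries with no count and was not called without CK 24 h replicate 1 (−8.35, 0.0604). The change of PheCAD5 in CK 24 h against CK 3 h did not pass (−0.83 ± 0.88, 0.612).

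Ordered by mean FPKM, PheCAD3 was highest in SA 24 h (2321 ± 149, SD, n = 3), followed by SA 3 h (1074 ± 31.5), NaCl 24 h (595 ± 29.4), NaCl 3 h (471 ± 69.5) and PEG 3 h (242 ± 24.5). The libraries labelled 0 h averaged 158 ± 105 (n = 4), or 211 ± 12.8 without replicate 1. ABA 3 h (148 ± 13.2), PEG 24 h (62.1 ± 1.68), CK 3 h (31.6 ± 0.324), CK 24 h (12.8 ± 2.59) and the libraries labelled ABA 24 h (2.17 ± 0.865) followed. The span from the lowest to the highest group mean was 1069-fold.

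Most neighbours in that order did not overlap, but fewer differed by 2-fold in the fit. Called steps were SA 3 h over NaCl 24 h (log2 1.06, adjusted p = 7.12e-07, as for 16.1% of genes), ABA 3 h over PEG 24 h (1.14, 3.12e-07, 13.2%) and PEG 24 h over CK 3 h (1.21, 1.6e-07, 9.93%). The 2 lowest steps, CK 3 h over CK 24 h and CK 24 h over labelled ABA 24 h, were called as given above. SA 24 h over SA 3 h (0.75, 0.000123), NaCl 24 h over NaCl 3 h (0.46, 0.0101) and NaCl 3 h over PEG 3 h (0.60, 0.0016) had an adjusted p under 0.05 at less than 2-fold, where 10.6%, 13.5% and 8.72% of genes were called higher. The 0 h libraries overlapped both of their neighbours. PEG 3 h over 0 h gave 0.95 ± 0.58 (0.181) and 0 h over ABA 3 h 0.03 ± 0.58 (0.986), where 12.9% and 13.5% of 39392 genes were called.

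PheCAD5 had the same 4 groups on top, with 59.7 ± 7.16 FPKM in SA 24 h, 25.9 ± 2.27 in SA 3 h, 22.6 ± 3.11 in NaCl 24 h and 10.3 ± 2.75 in NaCl 3 h (SD, n = 3 each). ABA 3 h (7.44 ± 3.75), PEG 3 h (6.98 ± 3.16), 0 h (4.15 ± 3.07, n = 4, or 5.53 ± 1.64 without replicate 1) and PEG 24 h (1.04 ± 0.644) came next. CK 3 h (0.303 ± 0.114), CK 24 h (0.148 ± 0.210) and the libraries labelled ABA 24 h (0) closed the order. By mean FPKM its order differed from that of PheCAD3 only in the middle, where ABA 3 h stood before PEG 3 h and 0 h. The fit put ABA 3 h below PEG 3 h (log2 −0.17 ± 0.40, adjusted p = 0.771), and by rank among all genes PEG 3 h also stood before ABA 3 h, so these 2 groups have no settled order.

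For PheCAD5 only 2 of the 10 steps were called, NaCl 24 h over NaCl 3 h (log2 1.25 ± 0.38, adjusted p = 0.00819) and PEG 24 h over CK 3 h (2.02 ± 0.62, 0.011), and in the second the libraries overlapped. SA 24 h lay above SA 3 h in every library but did not pass (0.84 ± 0.37, 0.0694). SA 3 h and NaCl 24 h (0.379), NaCl 3 h and ABA 3 h (0.443), ABA 3 h and PEG 3 h, PEG 3 h and 0 h (0.161), and 0 h and PEG 24 h (0.112) overlapped and did not pass. The first of each pair was called higher in 13.7% of genes for NaCl 3 h over ABA 3 h, in 8.48% for ABA 3 h over PEG 3 h and in 2.57% for 0 h over PEG 24 h.

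The libraries labelled ABA 24 h were also set against those labelled 0 h, with 0 h in the fit. PheCAD3 had 2.05, 3.09 and 1.37 FPKM in labelled ABA 24 h, against 1.5, 200, 225 and 208 FPKM in 0 h. The fitted log2 difference was −5.89 ± 0.77 (adjusted p = 2.94e-06), −6.29 without 0 h replicate 1 (1.08e-21), and it did not pass when only these 7 libraries were fitted (0.0971). PheCAD5 had no count in labelled ABA 24 h, against 0, 3.66, 6.65 and 6.30 FPKM in 0 h. It was at least 41.0-fold lower in labelled ABA 24 h than in 0 h, or at least 54.7-fold lower than in 0 h replicates 2 to 4. Of 39392 genes, 13.2% were called lower. In both genes 0 h replicate 1 alone lay within or at the values of the libraries labelled ABA 24 h.

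Among all 59091 genes, PheCAD3 ranked 10th by mean FPKM in SA 24 h, and between 10th and 13th in its single libraries. It ranked 38th in SA 3 h, 82nd in NaCl 24 h, 109th in NaCl 3 h, 312th in PEG 3 h and 434th in ABA 3 h. It was 1498th in PEG 24 h, 3190th in CK 3 h, 8141st in CK 24 h and 20321st in the libraries labelled ABA 24 h. It took 0.420% of all counts in SA 24 h, against 0.00232% in CK 24 h.

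In the libraries labelled 0 h the rank of PheCAD3 was 320 to 364 in replicates 2 to 4 and 22337 in replicate 1. PheCAD5 ranked 1800th in SA 24 h, 4100th in SA 3 h, 5138th in NaCl 24 h, 10385th in NaCl 3 h, 11484th in PEG 3 h, 12363rd in ABA 3 h and 25802nd in PEG 24 h. It ranked 33559th in CK 3 h and 36565th in CK 24 h, where most genes around it hold a handful of counts, and in the libraries labelled ABA 24 h it shared the last place of genes at 0. At its highest, PheCAD5 stood above PheCAD3 in CK 24 h, with 59.7 FPKM in SA 24 h against 12.8 FPKM of PheCAD3 in CK 24 h, but below the 211 FPKM of PheCAD3 in 0 h replicates 2 to 4.

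**Figure D3:**
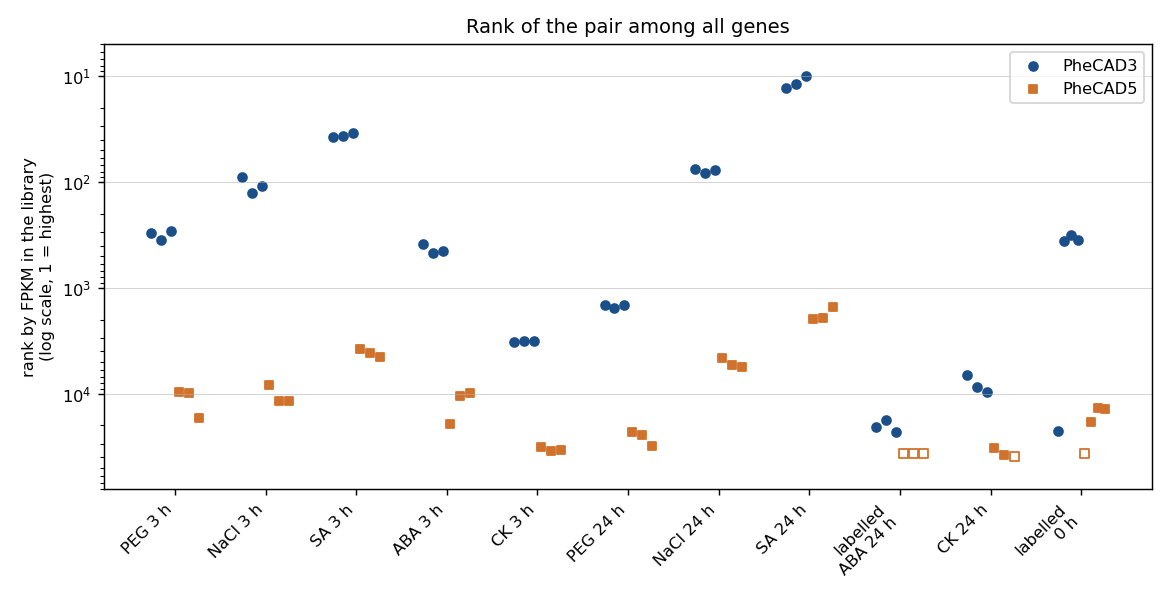
Rank of PheCAD3 (circles) and PheCAD5 (squares) by FPKM among all 59091 genes in each library, on a log axis with rank 1 at the top. Open squares are libraries with no PheCAD5 count. PheCAD3 lies at ranks 10 to 13 in SA 24 h, against 6719 to 9566 in CK 24 h.

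PheCAD3 took a larger share of the summed level of the CAD family in 7 treated groups than in CK of the same time, most of all in SA. It made up 90.1% ± 0.293 of the summed FPKM of the 14 PheCAD genes in SA 24 h, 71.3% ± 0.348 in NaCl 24 h and 35.1% ± 0.338 in PEG 24 h, against 6.88% ± 1.04 in CK 24 h (SD, n = 3 each). At 3 h the shares were 89.1% ± 0.407 in SA, 67.9% ± 2.35 in NaCl, 69.6% ± 1.20 in PEG and 48.8% ± 3.17 in ABA, against 17.02% ± 0.465 in CK. PheCAD3 was the highest PheCAD gene in these 7 treated groups, against rank 3 in CK 3 h and rank 6 in CK 24 h. In the libraries labelled ABA 24 h it had rank 7 and 2.56% ± 0.686, and in those labelled 0 h rank 1 and 41.1% ± 26.02 (n = 4), or 54.1% ± 1.92 without replicate 1. The share of PheCAD5 was 2.31% ± 0.133 in SA 24 h against 0.0762% ± 0.107 in CK 24 h.

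The other 12 PheCAD genes, all of them tested, did not show this rise in their calls. PheCAD6, PheCAD7, PheCAD9 and PheCAD10 had a mean of at most 0.199 FPKM in any group, near the floor. For these, a missing call does not show that the gene did not respond. No other PheCAD gene was called in the same direction in at least 4 of the 8 comparisons with CK. In SA 24 h 0 of the 12 were called higher and 1 lower, beside 9.03% and 11.7% of all genes. Their median log2 change there was −0.20, against −0.04 over all genes tested. In NaCl 24 h 2 were called higher and 1 lower (14.2% and 15.4% of all genes, median 0.25 against −0.07). In the libraries labelled ABA 24 h 0 were higher and 4 lower (6.51% and 13.7% of all genes, median −0.97 against −0.06). In the other 5 comparisons 0 or 1 of them were called higher and 1 or 2 lower. Of all genes, 6.72% to 14.5% were called higher there and 9.58% to 14.3% lower. The largest called rise among them, picked after the values were seen, was that of PheCAD12 in NaCl 3 h, at 146 FPKM against 44.7 FPKM in CK 3 h (log2 1.74).

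PheCAD3 and PheCAD5 have consecutive ids, so the 10 ids below and the 10 above them were examined for a response of the neighbourhood. The ids stand in for position, because no coordinates were used here. Of these 20 ids 19 are in the tables, and 7 passed the filter on low counts. 8 of the others had no count in any library, among them the 3 ids just below PheCAD3 (PH02Gene38467, PH02Gene38468 and PH02Gene38469). The next id above PheCAD5, PH02Gene38472, had a mean of at most 0.225 FPKM in any group.

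None of the nearby ids responded as the pair did. None was called in the same direction in 4 or more of the 8 comparisons with CK. Called higher were 0 of 7 in each of the 3 h comparisons except ABA, with 1, and at 24 h 1 in PEG, 1 in NaCl, 0 in SA and 0 in labelled ABA 24 h. Called lower at 3 h were 1 of 7 in PEG, 0 in NaCl, 1 in SA and 2 in ABA, and at 24 h 0 in PEG, 1 in NaCl, 0 in SA and 2 in labelled ABA 24 h. Beside these, the share of all genes called lower at 3 h was 12.6% in PEG, 9.64% in NaCl, 14.3% in SA and 11.4% in ABA. At 24 h it was 9.58% in PEG, 15.4% in NaCl, 11.7% in SA and 13.7% in labelled ABA 24 h. The share of all genes called higher at 3 h was 13.3% in PEG, 10.9% in NaCl, 14.5% in SA and 10.4% in ABA. At 24 h the share called higher was 6.72% in PEG, 14.2% in NaCl, 9.03% in SA and 6.51% in labelled ABA 24 h. The median change of the 7 ids in SA 24 h was 0.17 on the log2 scale, against −0.04 over all genes.

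The nearby ids that were called, named after their values were seen, moved in 1 to 3 comparisons each. PH02Gene38463 rose in NaCl 24 h (log2 1.98) and PEG 24 h (1.16). PH02Gene38464 fell by 1.18 in PEG 3 h, by 1.09 in ABA 3 h and by 1.08 in labelled ABA 24 h. PH02Gene38473 rose in ABA 3 h (1.54) and fell by 1.21 in labelled ABA 24 h. PH02Gene38460 fell by 1.35 in SA 3 h and PH02Gene38465 fell by 3.11 in NaCl 24 h, while PH02Gene38472 was called lower in ABA 3 h, where it had no count. In SA 24 h, where the pair rose most, none of the 7 ids was called. Widening the window to 50 ids on each side gave 49 tested ids, of which 3 were called higher and 4 lower in SA 24 h, and 5 higher and 6 lower in NaCl 24 h. The shares called higher were 6.12% and 10.2%, beside 9.03% and 14.2% of all genes tested. Only in ABA 3 h was the share above that of all genes, at 12.2% against 10.4%. These differences were not tested.

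**Figure D4:**
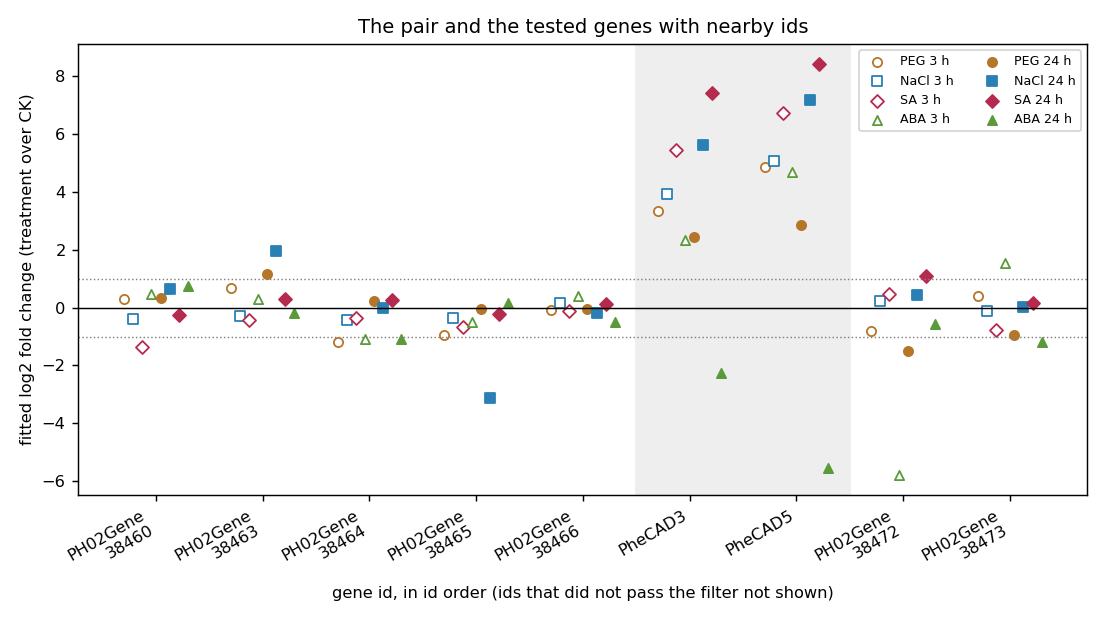
Fitted log2 fold change over CK of the same time for PheCAD3, PheCAD5 (shaded) and the 7 nearby ids that passed the filter, in id order. Open symbols are 3 h and filled symbols 24 h, and dotted lines mark 2-fold. Outside the shaded pair no id exceeds a log2 rise of 1.98. PH02Gene38472 in ABA 3 h and PheCAD5 in ABA 24 h had no count, so those fitted falls are no bounds.

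The 2 genes rose together, and whether their ratio differed between groups depended on which groups were included. PheCAD5 made up 1.503% ± 0.0834 of the counts of the pair in SA 24 h, 1.42% ± 0.163 in SA 3 h, 2.21% ± 0.260 in NaCl 24 h and 1.28% ± 0.224 in NaCl 3 h (SD, n = 3 each). It made up 2.99% ± 1.60 in ABA 3 h, 1.72% ± 0.828 in PEG 3 h and 1.00% ± 0.609 in PEG 24 h, against 0.594% ± 0.218 in CK 3 h. Over these 8 groups, in which every library had at least 10 PheCAD5 counts, the log2 ratio of the 2 genes differed between groups (F = 3.21, permutation test with 100000 resamples, p = 0.0239). Over the 6 groups with at least 50 counts in every library it did not pass (F = 1.53, permutation p = 0.249).

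The spread within groups was itself uneven, so the permutation test does not separate a difference in mean ratio from a difference in spread. In ABA 3 h the 3 libraries had 1.14% (95% exact binomial interval 0.931 to 1.37), 3.87% (3.47 to 4.31) and 3.95% (3.53 to 4.397). In PEG 3 h they had 2.03% (1.81 to 2.27), 2.34% (2.08 to 2.62) and 0.778% (0.643 to 0.931). The intervals, which cover counting error only, of 1 library in each group lie apart from those of the other libraries. PheCAD3 varied by 1.18 times and 1.21 times between the libraries of these groups in FPKM, while PheCAD5 varied by 3.17 times and 2.70 times. Both varied little in SA 24 h, by 1.13 times and 1.23 times.

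The sources used here do not say how reads that match both genes were counted, so the split of counts between PheCAD3 and PheCAD5 is uncertain. Its part in these shares, and in the rises, ranks and correlations of PheCAD5, was not tested. Counts per FPKM of PheCAD5 were 0.595 of those of PheCAD3 in the median of 28 libraries, a ratio set by the transcript lengths used. The share by FPKM is therefore higher, at 2.50% ± 0.137 in SA 24 h against 0.952% ± 0.364 in CK 3 h.

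**Figure D5:**
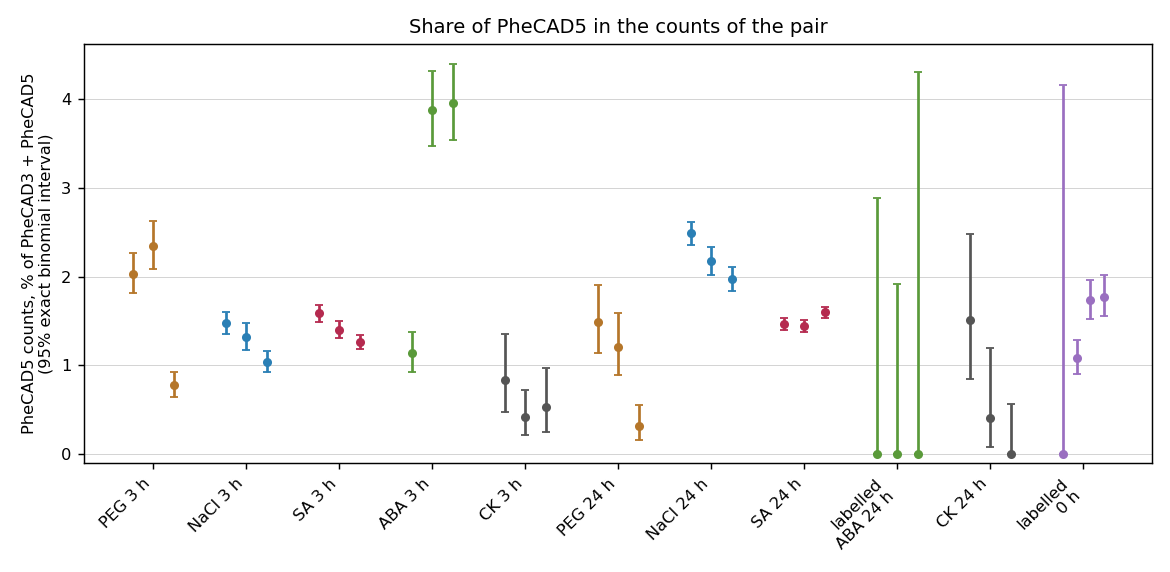
PheCAD5 counts as a percentage of PheCAD3 plus PheCAD5 counts in each library, with 95% exact binomial intervals that cover counting error only. The SA 24 h libraries lie between 1.44% and 1.60%, while the ABA 3 h libraries lie at 1.14%, 3.87% and 3.95%.

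The genes whose pattern was most like that of the pair were found by Pearson correlation of log2(CPM + 1) over the 34 libraries, among 39391 genes. These correlations are descriptions over libraries that share treatments. For PheCAD3 the closest were Phyllostachys_edulis_newGene_22879 (r = 0.979), PH02Gene16165 (0.971), PH02Gene04624 (0.966), PH02Gene22549 (0.965) and PH02Gene26357 (0.963). The first of these had 2441 FPKM in SA 24 h against 16.9 FPKM in CK 24 h, close to the levels of PheCAD3 itself. It was the closest gene also without the 0 h libraries, over the 11 group means and by rank correlation.

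For PheCAD5 the closest were PH02Gene47921 (r = 0.968), Phyllostachys_edulis_newGene_5840 (0.943), PH02Gene39376 (0.939), PheCAD3 (0.939) and PH02Gene27818 (0.936). PheCAD3 was thus 4th for PheCAD5, while PheCAD5 was 32nd for PheCAD3. PH02Gene47921 had 148 FPKM in SA 24 h against 0.236 FPKM in CK 24 h. The 7 nearby ids had r between −0.37 and 0.36 with PheCAD3 and between −0.35 and 0.40 with PheCAD5, with medians of 0.25 and 0.25, where the medians over all genes were 0.02 and 0.00. The files pair these ids with no gene names.

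Other steps of lignin synthesis were read from a list that the study's authors drew up on other tissues. Of its 146 genes besides PheCAD, 144 matched the tables and 113 passed the filter. In SA 24 h 26 were called higher and 25 lower (23.01% and 22.1% of those tested, against 9.03% and 11.7% of all genes), with a median log2 change of −0.12 against −0.04 over all genes. In NaCl 24 h 25 were higher and 16 lower (22.1% and 14.2%, against 14.2% and 15.4%), and in PEG 24 h 9 and 14 (7.96% and 12.4%, against 6.72% and 9.58%). In the libraries labelled ABA 24 h 6 were higher and 41 lower (5.31% and 36.3%, against 6.51% and 13.7%). At 3 h 26 were higher and 25 lower in SA (against 14.5% and 14.3% of all genes), 30 and 15 in NaCl (26.5% and 13.3%, against 10.9% and 9.64%), 30 and 6 in PEG (26.5% and 5.31%, against 13.3% and 12.6%) and 31 and 8 in ABA (27.4% and 7.08%, against 10.4% and 11.4%). The listed genes thus went both ways in SA, where PheCAD3 and PheCAD5 rose most.

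By step, 5 of 6 C4H genes (cinnamate 4-hydroxylase, the second enzyme of the pathway) were called higher in SA 24 h and 3 of 6 in NaCl 24 h, where 9.03% and 14.2% of all genes were. Of the 13 tested PAL genes (phenylalanine ammonia-lyase, which opens the pathway) 3 were called higher and 6 lower in SA 24 h, and 13 lower in the libraries labelled ABA 24 h. CCR genes (cinnamoyl-CoA reductase, which makes the aldehydes that CAD reduces) were called higher in 1 and lower in 9 of 24 in SA 24 h. CCoAOMT genes (caffeoyl-CoA O-methyltransferase) were higher in 3 of 6 in NaCl 24 h and 2 of 6 in SA 24 h, and lower in none of them. Beside these, 11.7% of all genes were called lower in SA 24 h, 15.4% in NaCl 24 h and 13.7% in labelled ABA 24 h. In SA 24 h F5H genes (ferulate 5-hydroxylase) were higher in 7 and lower in 2 of 19. HCT genes (hydroxycinnamoyltransferase) were higher in 3 and lower in 3 of 15 there. C4H genes were lower in 4 of 6 in labelled ABA 24 h. The remaining steps are not described here.

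Among the genes of the list besides PheCAD that were called in SA 24 h without overlap, the 3 largest rises were in PH02Gene38755 (F5H, ferulate 5-hydroxylase), PH02Gene44264 (C4H) and PH02Gene49877 (F5H). PH02Gene44264 had 19.9 ± 2.48 FPKM in SA 24 h against 1.61 ± 0.326 FPKM in CK 24 h (log2 3.57 ± 0.23, adjusted p = 6.45e-13). PH02Gene38755 had 0.159 ± 0.102 FPKM and was at 0 in CK 24 h, and PH02Gene49877 had 0.149 ± 0.0661 FPKM against 0.00881 ± 0.0153 FPKM in CK 24 h (log2 3.19 ± 1.18, 0.0363). The 3 largest falls were in PH02Gene18490 (HCT, hydroxycinnamoyltransferase), which was at 0 in SA 24 h against 0.283 ± 0.214 FPKM in CK 24 h, PH02Gene08453 (PAL, 0.244 ± 0.150 against 4.05 ± 0.154 FPKM) and PH02Gene19042 (HCT, 0.490 ± 0.174 against 7.70 ± 0.980 FPKM). PheCAD3 had the highest mean FPKM in SA 24 h of all 158 lignin genes in the tables.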

How the data were processed

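The authors deposited raw read counts for 59091 genes without normalization, and FPKM values they had computed from such data. Per the labels, the processing notes name HISAT2 and DESeq2. The sources used here give neither their versions nor the genome build nor the handling of reads that match several genes. The study names the libraries of a group biological replicates. All columns were mapped to samples by their labels. Counts were filtered with filterByExpr (39089 genes in the 30 libraries of CK and treatments, 39392 in all 34), normalized by TMM and tested with edgeR 4.0.16 in R 4.3.3, with 1 mean per group and Benjamini-Hochberg adjustment over all genes tested. A call needed at least a 2-fold change at adjusted p under 0.05. Approximate standard errors were obtained by dividing each log2 fold change by the root of its F. Comparisons with 0 h used all 34 libraries. DESeq2 1.42.0 and limma 3.58.1 on log2(FPKM + 1) and log2(FPKM + 0.1), other filters and normalizations, a replicate block and each library left out served as alternatives, and so did, chosen after seeing the data, the fit without the libraries labelled ABA 24 h. The procedure was also run on simulated counts with the same spread for every gene. Those need not resemble these libraries, and no result here rests on that run.

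No pair of replicate columns was identical (0 of 36), and chi-square per degree of freedom between replicates was 5.72 to 298. Intervals and limits from a count of 0 cover counting error only. The rule named both genes, nearby ids and other PheCAD genes called in the same direction in at least 4 of 8 comparisons, the 3 largest rises and falls of other lignin genes in SA 24 h against CK 24 h called without overlap, and the 5 genes most like each member. The genes, lists and tests were chosen with earlier results of these data known. Tables and plots were made in Python 3.11.15 (scipy 1.17.1, pandas 2.3.3, numpy 2.4.6, matplotlib 3.10.9).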

Additional observations from a re-analysis of the deposited data

Results flagged for a closer look

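In the libraries labelled 0 h, PheCAD3 had 1.5, 200, 225 and 208 FPKM. The gap of replicate 1 to the nearest library was 0.887 of the range of the group, which is above the limit for 4 samples. Chance alone gives about 1 such group in 20, but this library was already known to lie apart, so that rate does not apply to it. The 24 h change of PheCAD3 relative to CK differed from its 3 h change in the edgeR fit of 30 libraries, by 1.99 in SA, 1.71 in NaCl, −0.88 in PEG and −4.62 in ABA on the log2 scale. With all 34 libraries the adjusted p was 0.104 in SA, 0.161 in NaCl and 0.504 in PEG. The sign in ABA depends on the labels of the libraries labelled ABA 24 h, to which 0 h replicate 1 lay close. For PheCAD5 this difference passed for ABA only, with a fitted −10.27 that rests on libraries with no PheCAD5 count and is no bound. It was −8.35 without CK 24 h replicate 1, where it did not pass (adjusted p = 0.0604).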

How the results depend on the processing

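No result for PheCAD3 or PheCAD5 changed direction under any alternative. Replicate numbers did not pair the libraries, since the 27 correlations of their deviations lay between −0.0245 and 0.0299, and the fit with the replicate number as a block, which gave 7.45 for PheCAD3 and 8.46 for PheCAD5 in SA 24 h, changed 0 of 28 calls. With all 34 libraries in the fit, PheCAD3 no longer passed for CK 24 h against CK 3 h (log2 −1.24) and for the time differences of NaCl (1.71) and SA (1.99). With only the groups compared, labelled ABA 24 h against labelled 0 h no longer passed for PheCAD3 (−5.89) or PheCAD5 (−10.06), and the time differences of PheCAD5 passed for NaCl (2.08) and SA (1.67). With limma on log2(FPKM + 1), PheCAD5 in PEG 24 h no longer passed (0.79, with or without a minimum), and its time differences passed for PEG (−1.73), NaCl (1.27) and SA (1.36). With a pseudocount of 0.1 they passed at −1.73, 2.15 and 2.20. With DESeq2, PheCAD5 passed for labelled ABA 24 h against CK 24 h (−4.71) and for the NaCl time difference (2.16). Leaving out 1 library gave a range for PheCAD5 of −6.10 to −3.64 in labelled ABA 24 h against CK 24 h, and of 1.54 to 4.01 for NaCl, 1.17 to 3.64 for SA and −10.82 to −8.35 for ABA in the time differences, in which CK 24 h replicates 1 and 3 decided the calls. For PheCAD5 in PEG it ranged from −2.56 to −0.10. Without the libraries labelled ABA 24 h in the fit, no call changed. The F for the share of PheCAD5 was 1.53 with at least 50 counts and did not pass. In each case where a call changed with the setting, the cause was not tested.

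TMM moved all genes relative to library totals, by up to 0.36 in log2 (SA 3 h), and PheCAD3 in SA 3 h was 5.09 by mean FPKM and 5.45 by the fit. Under limma on log2(FPKM + 1), 20 of 28 counts of called genes moved by over 1.5 times (0.35 to 1.21 times the edgeR count), and the share of calls that were higher was 34.4% in PEG 3 h (51.3% in edgeR), 40.3% in SA 3 h (50.4%) and 20.2% in labelled ABA 24 h (32.2%). Genes called higher in labelled ABA 24 h against 0 h numbered 4968 without 0 h replicate 1 and 2218 with it. Depth limits PheCAD5 in CK and in labelled ABA 24 h, at 16 counts or fewer per library.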

Other observations

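Another run of consecutive ids in the CAD family, PH02Gene13789 (PheCAD8), PH02Gene13790 (PheCAD10) and PH02Gene13791 (PheCAD11), was not called as PheCAD3 and PheCAD5 were. PheCAD8 was called lower in 2 of the 8 comparisons with CK, PheCAD11 in 1 and PheCAD10 in 0, and none of them was called higher. Of all genes, 9.58% to 15.4% were called lower and 6.51% to 14.5% higher in each of these comparisons. PheCAD10 had a mean of at most 0.139 FPKM in any group and PheCAD11 of at most 1.58 FPKM, so missing calls of PheCAD10 in particular say little. In SA 24 h against CK 24 h PheCAD8 had 20.1 against 33.4 FPKM and PheCAD11 0.269 against 1.58 FPKM, while PheCAD10 was at 0.0831 against 0.0547 FPKM. Correlations above 0.9 over the 34 libraries linked 118 of 39391 genes to PheCAD3 and 44 to PheCAD5.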
